A study of Arabidopsis thaliana with 18 samples.

Results

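Genes of 5 plant cell wall families were followed through the TOLS2 response of Arabidopsis thaliana root tips: alpha-expansins (EXPA), beta-expansins (EXPB), TRICHOME BIREFRINGENCE-LIKE proteins (TBL), family 9 glycosyl hydrolases (GH9) and cellulose synthase-like proteins (CSL). The families were chosen with earlier results of these data known, so shares of members beside those of all probe sets are descriptions. Within them, members were found by gene symbol alone, and the probe set with the highest mean stands for a gene that has several. They were 68 of the 16550 genes that a single-gene probe set represented: 13 EXPA, 5 EXPB, 23 TBL, 19 GH9 and 8 CSL genes. The RefSeq gene table held 118 genes with such symbols, so 13 of 24 EXPA, 5 of 6 EXPB, 23 of 41 TBL, 19 of 21 GH9 and 8 of 26 CSL genes were analysed here. GH9A1 (KORRIGAN1), CSLD3, CSLD5, TBL27 and TBL29 were among those not analysed here.

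The growing root wall is a network of cellulose microfibrils, hemicelluloses such as xyloglucan, and pectin. Expansins loosen this network without cutting it and allow cells to extend, and GH9 proteins are endo-1,4-beta-glucanases that act on cellulose and related glucans. Some classes of CSL proteins make hemicellulose backbones, CSLC members that of xyloglucan and CSLA members that of mannans. Several TBL proteins add acetyl groups to wall polysaccharides. TOLS2 belongs to a family of secreted signalling peptides, for which RLK7 serves as the receptor-like kinase. The PUCHI protein regulates transcription during the outgrowth of lateral roots.

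RNA came from tips of about 1 cm, about 80 pooled per sample, of seedlings grown 5 days and then kept for 3 h on medium with 1 µM TOLS2 or without it. The 6 groups held 3 arrays each: plants of the wild type, of rlk7-3 and of puchi-2, in each case a control (no peptide) and a TOLS2 group. The labels name no background accession or lesion for either mutant. They call the replicates biological, without saying what was grown separately.

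Values are log2 expression from the authors' RMA processing, where a step of 1 is a doubling, and ran from 0.38 to 13.98 with array medians between 6.19 and 6.30. Arrays correlated at 0.983 or more. RLK7 was looked for by symbol and by Entrez ID and was named for 0 probe sets of the annotation used, those with several genes included, so its transcript was not analysed here. PUCHI read 4.15 to 4.85 on wild-type controls and 5.04 to 5.45 on puchi-2 controls. With TOLS2 it read 6.45 to 6.58 in wild type and 6.15 to 6.32 in puchi-2, so the arrays labelled puchi-2 were higher without the peptide and lower with it, and the signal did not check that label. Deviations from group means were shared most among the replicate 1 arrays, with a median correlation of 0.179 over 15 pairs. Member calls with TOLS2 in wild type and puchi-2 are therefore also given without them. Family medians, correlations and wall genes of other families are not. Markers of root and leaf cell types were listed by 58 symbols for a check of the tissue. Only RCA, the rubisco activase of green tissue, matched a single-gene probe set by symbol. Other names of these genes were not searched. The tissue label was therefore not checked by root markers.

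In wild type, TOLS2 lowered GH9B17, TBL19 and TBL33 and raised EXPA4. These 4 of 68 members (5.88%) passed limma's test, at an adjusted p under 0.05 after Benjamini-Hochberg adjustment over 17481 probe sets. "Called" is used below for this threshold. The same call applied to 1.84% of all probe sets tested, 1.15% higher and 0.686% lower. At an unadjusted p under 0.05 the wild-type count was 18 of 68 (26.5%), beside 11.9%. Most differences were small: 51 members differed by less than 0.25 on the log2 scale, and GH9B17 was the only one past 2-fold. Root tips are mixed tissue, so fewer cells of a type and less RNA per cell cannot be told apart.

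GH9B17 (AT4G39000) encodes an endoglucanase of the GH9B class, which has the catalytic domain without a membrane anchor. Its log2 level was 8.56, 8.75 and 8.81 on wild-type control arrays and 7.57, 7.38 and 7.46 with TOLS2. Every TOLS2 array lay below every control array, with a wide gap between the groups. The gene fell by 1.24 (SE 0.20, 2.36-fold, limma adjusted p = 0.00368, n = 3).

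**Figure D1:**
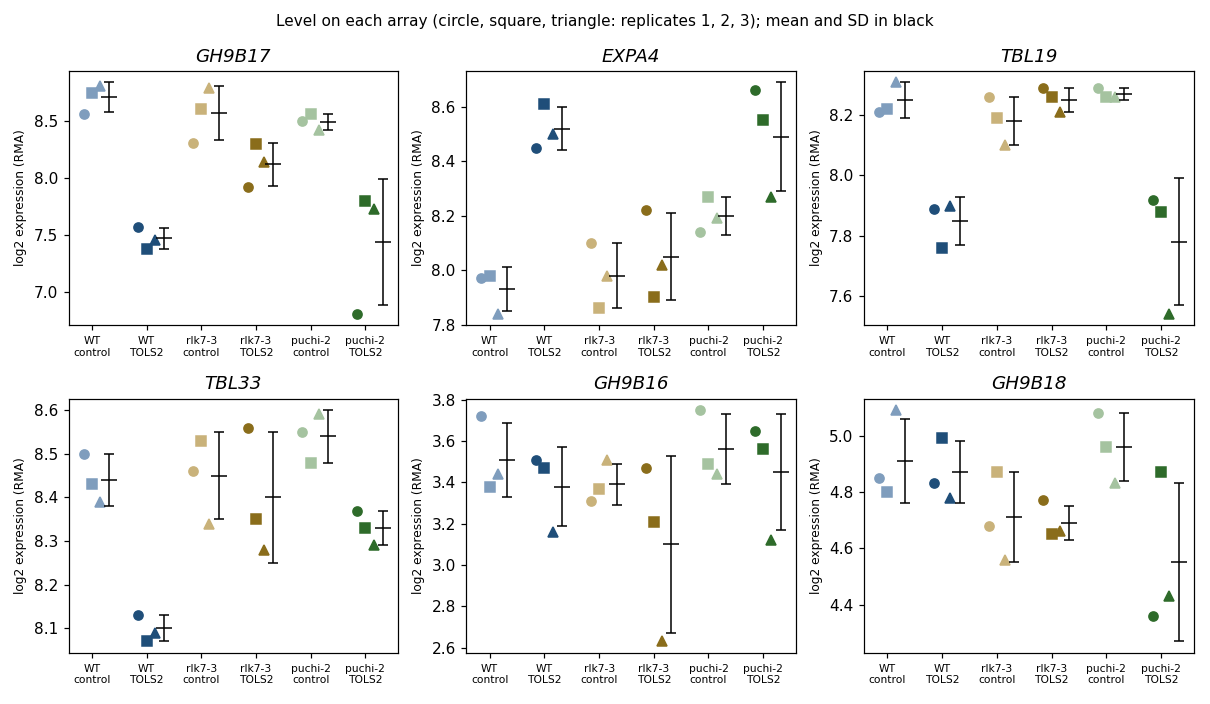
Log2 expression (RMA, y axis, a separate range in each panel) of 6 wall genes on all 18 arrays, by group on the x axis; circles, squares and triangles are replicates 1, 2 and 3, and black bars are the mean ± SD of 3 arrays. GH9B17, TBL19 and TBL33 lie lower and EXPA4 higher on wild-type TOLS2 arrays, while GH9B16 and GH9B18, which flank GH9B17, overlap between wild-type groups.

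The same gene was lower with TOLS2 in both mutants as well. On puchi-2 arrays GH9B17 read 8.50, 8.56 and 8.42 in control and 6.81, 7.80 and 7.73 with TOLS2. The groups did not overlap, and replicate 1 was far below the other TOLS2 arrays. The fall was 1.05 (SE 0.20, limma adjusted p = 0.0151), and it was not called without puchi-2 control replicate 1 (adjusted p = 0.0638) or replicate 2 (0.0572), nor in a fit of the puchi-2 arrays alone (0.243). On rlk7-3 arrays it read 8.31, 8.61 and 8.79 in control and 7.92, 8.30 and 8.14 with TOLS2. There the groups just failed to overlap (8.31 against 8.30), and the difference of -0.45 (SE 0.20) was not called (adjusted p = 0.672).

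The GH9B17 response of rlk7-3 minus that of wild type was 0.79 (95% interval 0.17 to 1.40), the fall being smaller in rlk7-3. This difference was not called over all probe sets (limma adjusted p = 0.344). The puchi-2 response differed from that of wild type by 0.19, with an interval from -0.43 to 0.80. GH9B17 lies between GH9B16 and GH9B18 on chromosome 4 with no other protein-coding gene between them in TAIR10.1. The neighbours had smaller differences, and the gap between genes was not tested. GH9B16 differed by -0.13, -0.29 and -0.12 with TOLS2 in wild type, rlk7-3 and puchi-2, none of them called. GH9B18 differed by -0.05, -0.01 and -0.40, also not called, with 1 of 3 puchi-2 TOLS2 arrays inside the control range. Whether probes of such similar genes read each other's transcripts was not tested.

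EXPA4 (AT2G39700) was the only expansin called. Expansins of the alpha class loosen walls at acid pH. EXPA4 read 7.97, 7.98 and 7.84 on wild-type control arrays and 8.45, 8.61 and 8.50 with TOLS2. All TOLS2 arrays stood above all controls, and the gene rose by 0.59 (SE 0.10, 1.51-fold, limma adjusted p = 0.00664, n = 3). On rlk7-3 arrays the levels were 8.10, 7.86 and 7.98 in control and 8.22, 7.90 and 8.02 with TOLS2. These groups overlapped, and the difference was 0.06 (SE 0.10, adjusted p = 0.93).

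On puchi-2 arrays EXPA4 read 8.14, 8.27 and 8.19 in control and 8.66, 8.55 and 8.27 with TOLS2. The lowest TOLS2 array and the highest control array had the same value to 2 decimals, and the difference of 0.29 (SE 0.10) was not called (limma adjusted p = 0.217). Part of the smaller difference lay in the controls: all 3 puchi-2 controls were above all wild-type controls, by a mean of 0.27 that was not called (adjusted p = 0.73). The responses differed from that of wild type by -0.53 in rlk7-3 (95% interval -0.84 to -0.22, adjusted p = 0.194) and by -0.30 in puchi-2 (-0.61 to 0.01), neither of them called.

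TBL19 (AT5G15900) and TBL33 (AT2G40320) were the called TBL genes. TBL33 belongs to the subgroup that acetylates xylan, which did not move as a whole in wild type. TBL30, of that subgroup, was higher with TOLS2 without overlap (mean 7.37 in control and 7.60 with TOLS2). TBL31 (4.61 and 4.59), TBL32 (10.50 and 10.42) and TBL34 (7.33 and 7.34), also of it, overlapped between groups. TBL19 read 8.21, 8.22 and 8.31 on wild-type control arrays and 7.89, 7.76 and 7.90 with TOLS2. It fell by 0.40 (SE 0.09, limma adjusted p = 0.0284, n = 3), with no overlap of the groups. On puchi-2 arrays TBL19 read 8.29, 8.26 and 8.26 in control and 7.92, 7.88 and 7.54 with TOLS2. The fall there was 0.49 (SE 0.09, adjusted p = 0.00964), again with no overlap. Without the replicate 1 arrays of all groups, neither fall was called (adjusted p = 0.139 in wild type and 0.0911 in puchi-2), nor in a fit of only the arrays compared (0.0811 and 0.227).

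On rlk7-3 arrays TBL19 stayed within one range: 8.26, 8.19 and 8.10 in control and 8.29, 8.26 and 8.21 with TOLS2. The difference was 0.07 (SE 0.09, limma adjusted p = 0.89). The rlk7-3 response minus that of wild type was 0.47 (95% interval 0.21 to 0.74, limma adjusted p = 0.158), which was not called. Its sign reflects the fall in wild type. The puchi-2 response differed from that of wild type by -0.09, with an interval from -0.35 to 0.18.

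TBL33 read 8.50, 8.43 and 8.39 on wild-type control arrays and 8.13, 8.07 and 8.09 with TOLS2. It fell by 0.34 (SE 0.07, limma adjusted p = 0.0276, n = 3), with no overlap. On puchi-2 arrays all TOLS2 values (8.37, 8.33 and 8.29) were below all control values (8.55, 8.48 and 8.59), a difference of -0.21 that was not called (adjusted p = 0.214). On rlk7-3 arrays the levels overlapped (8.46, 8.53 and 8.34 in control; 8.56, 8.35 and 8.28 with TOLS2).

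The wild-type calls of both TBL genes depended on every array. With any 1 of the 6 wild-type arrays left out, the adjusted p of TBL19 was 0.0517 to 0.133 and that of TBL33 was 0.0506 to 0.11. Neither was called after arrays were centred on their median (0.0565 and 0.0649). TBL33 was also not called without the replicate 1 arrays of all groups (0.132) or in a fit of the wild-type arrays alone (0.0979). By contrast, the wild-type calls of GH9B17 and EXPA4 held under all 16 alternatives, with adjusted p up to 0.0247 and 0.043.

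In the TBL family as a whole, more members stood lower than higher with TOLS2 in wild type and puchi-2. In wild type 20 of 23 estimates were below 0, with a median of -0.15, a lowest of -0.40 and a highest of 0.23. The median of all probe sets tested was -0.04, and 60.7% of them were below 0. On 8 of the 23 genes all wild-type TOLS2 arrays were below all controls (TBL16, TBL19, TBL24, TBL25, TBL33, TBL38, TBL39 and TBL41), and TBL30 alone showed the opposite order. Among all 17481 probe sets, 2090 were lower and 1185 higher without overlap. Over the 68 members 23 (33.8%) did not overlap in wild type, beside 18.7% of all probe sets.

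In puchi-2, 18 of 23 TBL estimates were below 0, with a median of -0.14 beside -0.01 for all probe sets, of which 54.0% were below 0. All of the 8 TBL genes just listed were again lower without overlap, joined by TBL28 and TBL32. Over the 68 members 23 (33.8%) did not overlap in puchi-2, beside 17.2% of all probe sets. Of the TBL genes listed, TBL24 and TBL25 belong to the subgroup that acetylates mannans. TBL23 and TBL26, of the same subgroup, overlapped between control and TOLS2 in both genotypes. Mean levels of TBL23 were 4.76 and 4.75 in wild type and 4.71 and 4.72 in puchi-2. Those of TBL26 were 4.45 and 4.43 in wild type and 4.65 and 4.42 in puchi-2. TBL39 differed by -0.15 in wild type and -0.19 in puchi-2, and TBL38 by -0.22 and -0.23, with no call for either gene. In rlk7-3, 8 of 23 TBL estimates were below 0, beside 29.9% of all probe sets. The TBL median was 0.06, as was that of all probe sets, and became -0.00 after a renewed quantile normalization. No TBL gene was lower without overlap there, and TBL43 alone was higher. TBL41 had the lowest TBL estimate in rlk7-3, -0.22 (mean 8.12 in control and 7.90 with TOLS2), with overlap. In wild type its means were 8.02 and 7.65. Over the 68 members 7 (10.3%) did not overlap in rlk7-3, beside 12.2%. The TBL response of rlk7-3 minus that of wild type was below 0 for 1 of 23 genes, with a median of 0.18, beside 29.6% and 0.09 for all probe sets. Most genes of this paragraph and the one before were named after their values were seen.

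**Figure D2:**
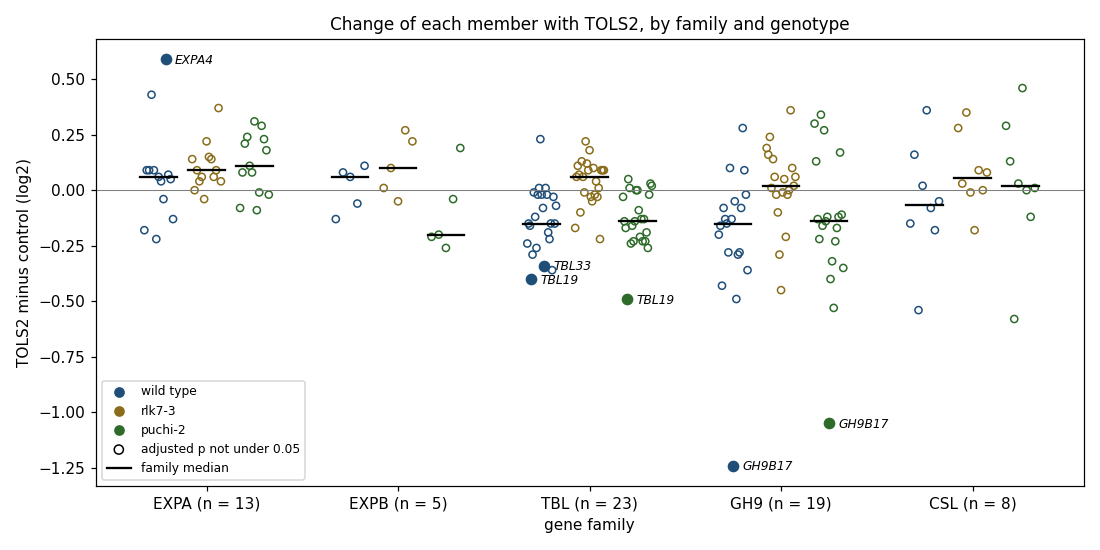
Difference of TOLS2 from control (log2, y axis) for each of the 68 genes by family (x axis) and genotype (colour); filled points passed an adjusted p under 0.05 and black lines are family medians. The TBL and GH9 medians are -0.15 in wild type, -0.14 in puchi-2, and 0.06 and 0.02 in rlk7-3.

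Families were also followed array by array. Each gene was set against its mean on wild-type controls, and the family median was taken per array. For TBL genes it was -0.09, -0.14 and -0.14 on the wild-type TOLS2 arrays and -0.09, -0.17 and -0.06 on those of puchi-2. On the rlk7-3 TOLS2 arrays it was 0.11, -0.07 and -0.01, so these overlapped with the rlk7-3 controls (-0.04, -0.01 and -0.03). For GH9 genes it was -0.09, -0.15 and -0.20 with TOLS2 in wild type, below the controls (-0.02, 0.01 and -0.01). The GH9 medians of puchi-2 with TOLS2 (-0.05, -0.10 and -0.20) overlapped with its controls (0.03, 0.05 and -0.08). Those of rlk7-3 with TOLS2 (0.02, -0.10 and -0.14) also overlapped with its controls, which were themselves below 0 (-0.07, -0.09 and -0.04). The rlk7-3 TOLS2 array of replicate 1 was the highest of its group in the EXPA, EXPB, TBL, GH9 and CSL families alike, and also over all probe sets (0.08 beside 0.00 and 0.04).

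**Figure D3:**
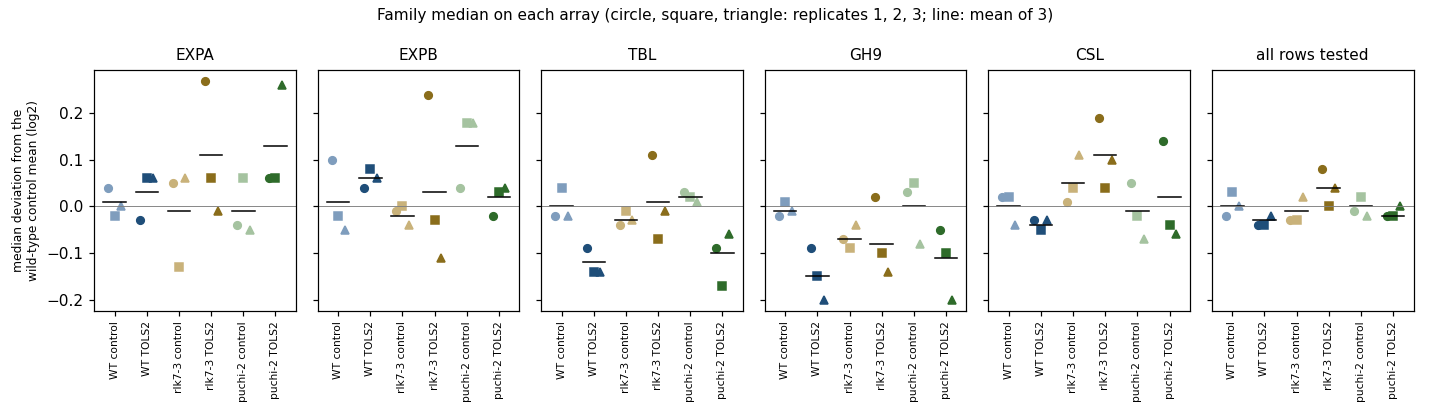
Family median of the log2 deviation from each gene's wild-type control mean (y axis) on each of the 18 arrays, by group (x axis), with all 17481 tested probe sets in the last panel; symbols mark replicates 1 to 3 and lines the mean of 3. With TOLS2, TBL and GH9 medians are below 0 on all 6 arrays of the wild type and puchi-2. The median of all tested probe sets ran from -0.04 to 0.0 on these arrays.

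Among GH9 genes the median with TOLS2 was -0.15 in wild type, 0.02 in rlk7-3 and -0.14 in puchi-2. In wild type 12 of 14 GH9B, 2 of 2 GH9A and 2 of 3 GH9C estimates were below 0, and GH9B17 was the only gene called. In rlk7-3 the GH9 median became -0.03 after centring of the arrays, so its sign was not settled. GH9B5 read 7.84, 7.76 and 7.60 in wild-type control and 7.22, 7.19 and 7.31 with TOLS2, without overlap. The difference of -0.49 (SE 0.12) missed the threshold (limma adjusted p = 0.058). GH9B7 read 11.02, 10.98 and 10.95 in control and 10.81, 10.65 and 10.64 with TOLS2, a difference of -0.28 (adjusted p = 0.0502). Both genes were called under some alternatives, GH9B5 in 4 of 16 and GH9B7 in 5 of 16.

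Both genes were lower without overlap in puchi-2, at -0.32 and -0.23, neither called. In rlk7-3 they overlapped between groups, at 0.05 and -0.02. The rlk7-3 response minus that of wild type was 0.54 for GH9B5 (95% interval 0.17 to 0.91) and 0.26 for GH9B7 (0.06 to 0.47). Both signs reflect the fall in wild type, and neither difference was called (limma adjusted p = 0.266 and 0.347). GH9B6 had its largest difference in puchi-2: it read 7.53, 7.61 and 7.42 in control and 6.83, 7.28 and 6.87 with TOLS2. That difference of -0.53 was not called (adjusted p = 0.105), beside -0.29 in wild type and -0.21 in rlk7-3.

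GH9B9, GH9B10, GH9B11 and GH9B12 follow each other directly on chromosome 2, and they did not move as a block. With TOLS2 in wild type they differed by 0.28, -0.43, -0.08 and -0.13, none called. GH9B10 was lower without overlap there (5.33, 5.45 and 5.40 in control; 4.83, 4.97 and 5.09 with TOLS2), and its rlk7-3 controls (4.89, 4.58 and 5.15) were also below the wild-type controls. GH9B9 read 2.43 or less and GH9B11 2.20 or less on every array, below the lower quartile of all probe sets (3.71).

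The 3 GH9C genes, whose proteins carry a carbohydrate-binding domain, differed by 0.09 (GH9C1), -0.02 (GH9C2) and -0.36 (GH9C3) in wild type, none called. GH9C3 split by replicate in all 3 genotypes. With TOLS2 it read 9.31, 8.64 and 8.59 in wild type, 9.67, 9.11 and 9.06 in rlk7-3, and 9.40, 8.84 and 8.45 in puchi-2. In each genotype replicate 1 was above the control range (highest 9.30, 9.37 and 9.36) and the other arrays below it. In rlk7-3 those other arrays were only just below the lowest control (9.13). Of the GH9A genes, GH9A3, a relative of KORRIGAN1, read 4.85, 4.51 and 4.94 on wild-type controls and 4.51, 4.31 and 4.25 on puchi-2 controls. That control difference of -0.41 was not called (limma adjusted p = 0.663).

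No other expansin was called. The median of the 13 EXPA genes was 0.06 in wild type, 0.09 in rlk7-3 and 0.11 in puchi-2. EXPA20 stood next to EXPA4 in wild type, at 7.20, 7.20 and 7.29 in control and 7.77, 7.51 and 7.70 with TOLS2. The groups did not overlap, and the difference of 0.43 (SE 0.11) missed the threshold (limma adjusted p = 0.0586). EXPA20 was the 1 member with a further probe set, and the probe sets disagreed: the dimmer one gave -0.13 (adjusted p = 0.791).

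EXPA7 and EXPA18 are the root hair expansins, which act as hair cells bulge and elongate. EXPA7 read 8.84, 9.02 and 8.75 in puchi-2 control and 9.12, 9.03 and 9.14 with TOLS2, a difference of 0.23 (limma adjusted p = 0.2), without overlap. In wild type it differed by 0.07 and in rlk7-3 by 0.09. EXPA18 differed by 0.09, 0.09 and 0.21 in wild type, rlk7-3 and puchi-2, and was not called in any of them. EXPA8 had the largest expansin difference in rlk7-3, at 6.24, 6.04 and 6.08 in control and 6.47, 6.50 and 6.50 with TOLS2. All 3 TOLS2 arrays were higher, by 0.37, without a call (adjusted p = 0.51).

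EXPA21, EXPA22, EXPA23, EXPA25 and EXPA24 lie in a row on chromosome 5, with 1 further protein-coding gene between EXPA23 and EXPA25. None of these genes separated TOLS2 from control arrays in any genotype, and their wild-type differences ran from -0.22 (EXPA22) to 0.09 (EXPA21). The 5 EXPB genes had medians of 0.06, 0.10 and -0.20 in wild type, rlk7-3 and puchi-2. EXPB1 was lower without overlap in puchi-2 (11.16, 11.06 and 10.97 in control; 10.86, 10.87 and 10.82 with TOLS2), a difference of -0.21 without a call (limma adjusted p = 0.225). EXPB3 varied between replicates: its puchi-2 TOLS2 arrays read 9.83, 9.02 and 8.74, and its puchi-2 controls (9.30, 9.50 and 9.55) all lay above the wild-type controls (9.01, 8.86 and 8.85). The control difference of 0.54 was not called (adjusted p = 0.797).

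Of the 8 CSL genes 0 were called in any comparison by limma. In wild type 3 of them (37.5%) had an unadjusted p under 0.05, beside 11.9% of all probe sets. CSLC genes encode the glucan synthases of the xyloglucan backbone. CSLC04 differed by 0.02, -0.01 and 0.03 in wild type, rlk7-3 and puchi-2, and CSLC5 by -0.08, 0.09 and -0.00. CSLC6 was lower without overlap in wild type (9.45, 9.48 and 9.43 in control; 9.32, 9.23 and 9.26 with TOLS2), at -0.18 and not called. CSLC12 was higher without overlap in wild type (6.95, 6.81 and 6.56 in control; 7.18, 7.02 and 7.21 with TOLS2) and in puchi-2 (6.78 ± 0.14 in control and 7.24 ± 0.33 with TOLS2, SD, n = 3). Its differences were 0.36 and 0.46, and -0.18 in rlk7-3, none called. The response of CSLC12 in rlk7-3 differed from that of wild type by -0.54 (95% interval -1.06 to -0.02, limma adjusted p = 0.459).

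CSLB03 had estimates of opposite sign in wild type and rlk7-3. It read 4.67, 4.78 and 5.19 in wild-type control and 4.87, 3.73 and 4.41 with TOLS2, and 4.73, 5.16 and 5.20 in rlk7-3 control and 5.51, 5.45 and 5.18 with TOLS2. Groups overlapped in both genotypes. In puchi-2, CSLB03 differed by -0.58 without overlap (adjusted p = 0.307 by limma). The responses of rlk7-3 and wild type differed by 0.90 (95% interval 0.18 to 1.62), without a call (limma adjusted p = 0.359). Without wild-type TOLS2 replicate 2, the lowest array, this was 0.59. CSLD2, which acts in root hair growth, differed by -0.05 in wild type, 0.08 in rlk7-3 and 0.01 in puchi-2. CSLA03, of the mannan synthase class, was higher without overlap in wild type (0.16) and puchi-2 (0.13), and not called.

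**Figure D4:**
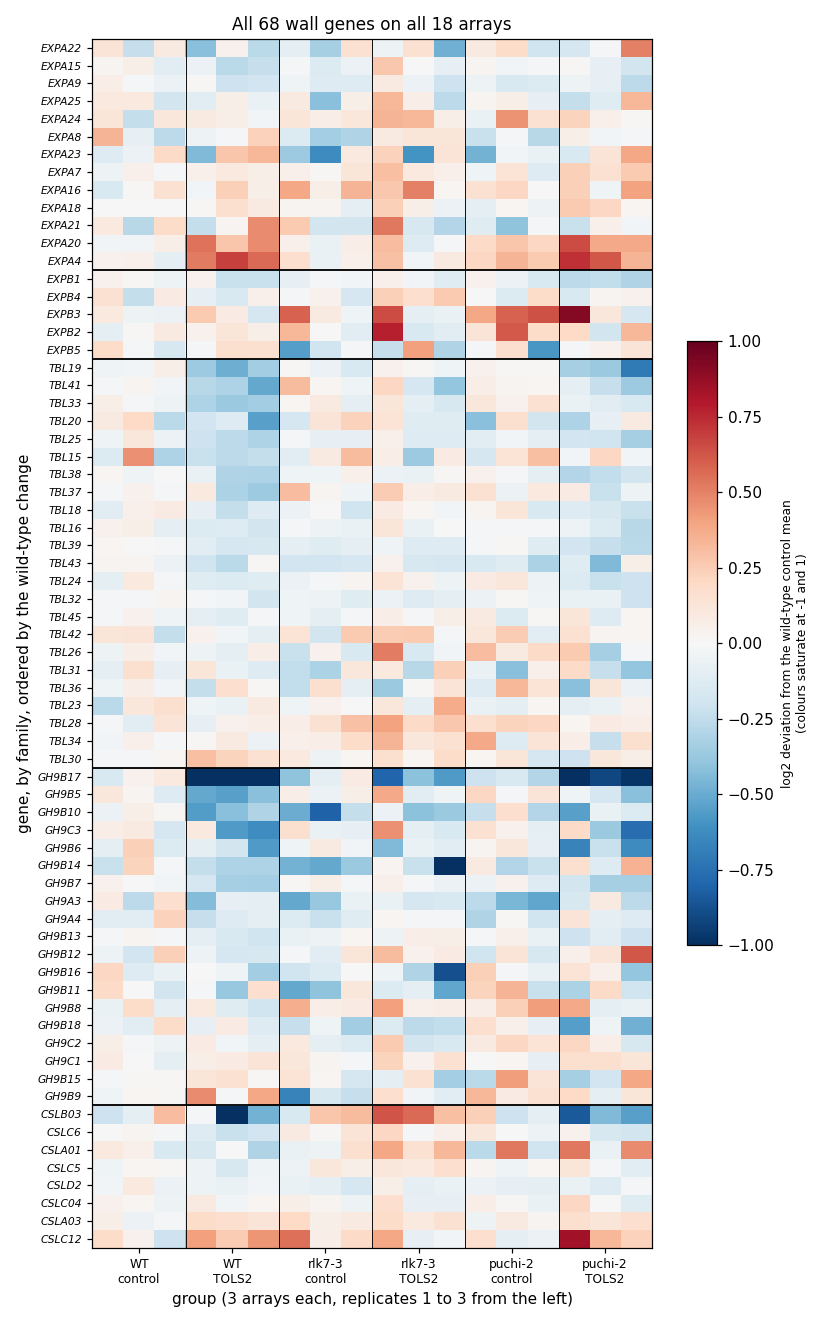
Deviation of all 68 genes (rows, by family and ordered by the wild-type change) from their wild-type control mean on all 18 arrays (columns, 3 per group), in log2 units with colours that saturate at -1 and 1. GH9B17 is the darkest row on the arrays of wild type and puchi-2 with TOLS2, and EXPA4 and EXPA20 are the rows of higher values in the EXPA block.

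Across genotypes, the response of the wall genes in puchi-2 ran with that of wild type. These comparisons share no arrays. Over the 68 genes the differences correlated at r = 0.67 (rho = 0.48), and at 0.55 without GH9B17, beside 0.57 over all 17481 probe sets. The sign was shared by 48 of 68 genes (70.6%), beside 63% of all probe sets. With rlk7-3 the correlation was 0.32, and 0.10 without GH9B17, beside 0.09 over all probe sets. There 32 of 68 genes (47.1%) shared the sign, beside 47.1% of all probe sets. Families differed from the pooled values. The wild-type response correlated with those of puchi-2 and rlk7-3 at 0.66 and -0.06 for EXPA genes. For TBL genes it was 0.47 and 0.62, and for GH9 genes, GH9B17 included, 0.62 and 0.56. By rank the GH9 values were lower (rho = 0.39 and 0.15), and 13 and 8 of the 19 GH9 genes shared the sign. Genes are not independent replicates, and arrays of the same replicate number shared part of their deviations, so these are descriptions.

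**Figure D5:**
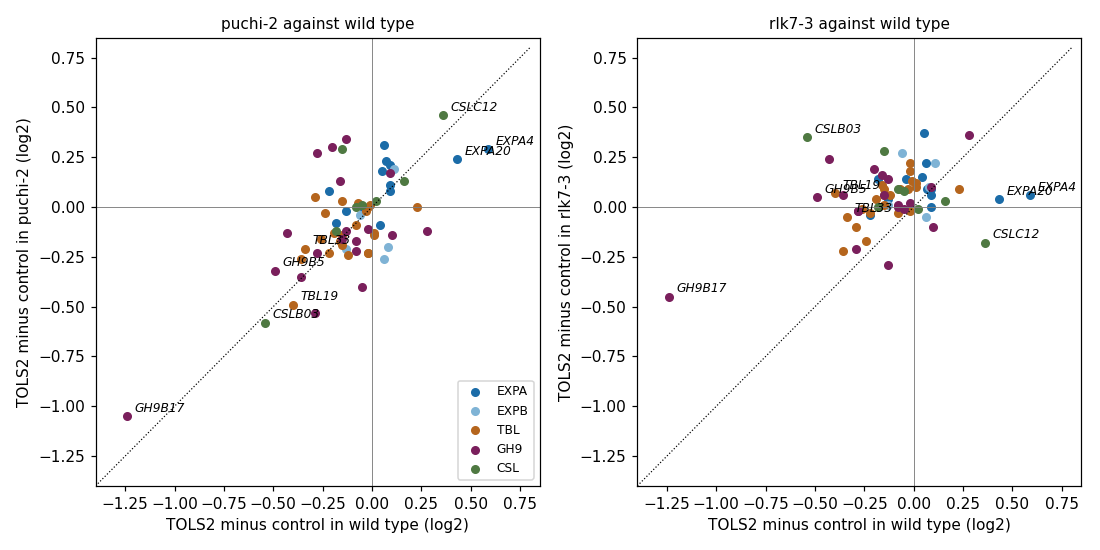
Difference of TOLS2 from control in puchi-2 (left) and rlk7-3 (right) against that in wild type, in log2 units, for the 68 genes coloured by family; the dotted line marks equal values. GH9B17 lies near the line for puchi-2 (-1.05 against -1.24) and above it for rlk7-3 (-0.45).

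In rlk7-3, limma called 0 of 68 members with TOLS2, and 4 (5.88%) had an unadjusted p under 0.05: EXPA8, EXPB4, GH9B9 and GH9B17. Among all probe sets 0.00572% were called and 7.18% had such a p. In puchi-2, 2 members (2.94%) fell, GH9B17 and TBL19, beside 1.60% of all probe sets called, 0.898% higher and 0.698% lower. At an unadjusted p under 0.05 there were 22 in puchi-2 (32.4%), beside 12.7%. Tested directly, no member's response passed the test for a difference between rlk7-3 and wild type (0 called by limma, beside 0.383% of all probe sets). At an unadjusted p under 0.05 there were 16 (23.5%), beside 10.5%. The member count fell to 9 after a renewed quantile normalization and to 8 after centring of the arrays. The share of all probe sets at that p was not counted under those settings. These 16 share their wild-type arrays with the wild-type comparison. For puchi-2 the count was 0, beside 0% of all probe sets, with 2 (2.94%) at an unadjusted p under 0.05, beside 4.05%.

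Without TOLS2, limma called 0 of 68 members in rlk7-3 and 0 in puchi-2, beside 0.0515% and 0.0172% of all probe sets. Counts at an unadjusted p under 0.05 were 4 (5.88%) and 5 (7.35%), beside 7.40% and 6.25%. The control difference was under 0.25 for 58 members in rlk7-3 and for 64 in puchi-2.

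Other wall genes were read from symbol patterns. Those of xyloglucan endotransglucosylases (XTH), expansin-like proteins (EXL), pectin enzymes, hemicellulose synthesis and COBRA held 20 measured genes, and those of cellulose synthases, galacturonosyltransferases, arabinogalactan proteins and extensins held none. In wild type 1 of the 20 rose and 4 fell by limma's test, in puchi-2 the same counts applied, and in rlk7-3 none was called, beside 1.84%, 1.60% and 0.00572% of all probe sets. XTH33 fell by 0.94 in wild type (SE 0.12, adjusted p = 0.00041) and by 1.04 in puchi-2. XTH21 fell by 0.53 and 0.47, and XTH19 by 0.41 and 0.57, while XTH20 rose by 2.28 and 2.63. EXLA2, an expansin-like gene, fell by 0.77 (adjusted p = 0.00566) and 0.83. In a fit of only the arrays compared, 3 of these 5 genes were called in wild type and 0 in puchi-2. The wild-type call of XTH19 (adjusted p = 0.0471) was also lost after renewed quantile normalization, after centring of the arrays and with all rows of the table tested. In rlk7-3 the genes differed by -0.36 (XTH33), -0.00 (XTH21), -0.17 (XTH19), 0.51 (XTH20) and 0.03 (EXLA2). Tested directly, none of these genes was called for a different response in rlk7-3 and wild type (limma adjusted p from 0.108 for EXLA2 to 0.558 for XTH19). XTH20 was dim in control, with means of 3.30 in wild type and 3.49 in puchi-2, below the lower quartile of all probe sets (3.71).

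One marker of another tissue moved with the lower wall genes. RCA read 7.80, 7.92 and 8.13 in wild-type control and 7.37, 7.12 and 7.40 with TOLS2, a fall of 0.65 (SE 0.15, limma adjusted p = 0.0355). On puchi-2 arrays it differed by -0.51 and on rlk7-3 arrays by 0.03, neither of them called. RCA was the 1 of 12 symbols of its marker list that matched a probe set, and its part in the results was not tested.

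The median residual SD was 0.155 over the 68 members and 0.158 over all probe sets. It was 0.109 for TBL, 0.160 for EXPA, 0.190 for GH9, 0.266 for EXPB and 0.093 for CSL genes. Of the members, 10 had a mean below the lower quartile of all probe sets (3.71).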

How the data were processed

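RNA of 18 root tip samples was hybridised to 1-colour arrays, 1 per sample. The deposited values are log2 expression, made by the authors with RMA (per the submitters' processing notes). No version of that software, probe definition or build was found in those notes. RMA normalizes between arrays, so part of a shift common to most transcripts can be lost.

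Of 38408 rows, 16722 had 1 gene in the platform annotation, 759 several and 20927 none. Symbols were updated by Entrez ID with a RefSeq table (TAIR10.1), which matched 16574 rows and all 68 members. It served for names and gene order only. The row with the highest mean stands for a gene. No member's values equalled those of another row. ATCSLC08 and EXP26 did not match the symbol rule. PRP39 and PGL34 matched list patterns by letters only and were left out.

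Samples were grouped by title. Limma 3.58.1 (R 4.3.3; lmFit and eBayes, 6 group means, 18 arrays) tested 17481 rows in 7 comparisons, with no filter. Intervals are unadjusted. With 3 arrays a group, their number limits the precision. The p-values set each difference against the spread between samples within groups, estimated over all 18 arrays. Members, lists and tests were chosen with earlier results of these data known. Members picked for description were those called, the 2 highest and lowest per family and genotype, and some of known role. Not all of the members picked are described. Others were named after their values were seen. Alternatives concerned normalization, variance prior, array weights, replicate block, rows, groups fitted and arrays left out. No promoter or protein sequence was used here.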

Additional observations from a re-analysis of the deposited data

How the results depend on the processing

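The number of wall genes called in wild type was 4, beside 321 of all 17481 probe sets. It was 2 after centring of the arrays, in a fit of only the groups compared, and when each group lost its replicate 1 array, beside 334, 174 and 255 of all probe sets. It was 8 with an intensity trend and robust prior, with the replicate number as a block and without dim probe sets, beside 452, 476 and 394 (of 13111), and 9 with array weights, beside 576. With 1 wild-type array left out it ran from 2 to 4. EXPA4 and GH9B17 were called under each of these. The added genes were GH9B5, GH9B7, TBL25 and EXPA20, and TBL38 with array weights. In puchi-2 the count was 2, beside 279. It was 5 with the trend and robust prior, 4 with array weights, 4 with the replicate block, 1 without the replicate 1 arrays, 0 in a fit of only the groups compared, and 1 to 4 with 1 array left out. In the first 5 of these settings 448, 556, 487, 114 and 39 of all probe sets were called. The cause was not tested. The replicate block brought GH9B6 and CSLC12 in puchi-2, and it left the count at 0 in rlk7-3 and in the 4 other comparisons. The labels do not say that a replicate number marks a shared batch, and not every same-numbered pair correlated above 0.1, so the numbers were not taken as pairs. Same-numbered control and TOLS2 arrays correlated in their deviations at 0.004 to 0.169 in wild type, 0.033 to 0.267 in rlk7-3 and 0.028 to 0.133 in puchi-2, and 4, 2 and 6 of 6 arrays correlated best with their own number. Over all groups 22 of 45 same-numbered pairs were above 0.1, against 2 of 90 others, a hint of a shared factor from the data, not the design. The median of TBL genes in rlk7-3 moved from 0.06 to -0.00 after a renewed quantile normalization. Of the 5 other wall genes called, 3 remained in wild type and 0 in puchi-2 in a fit of only the groups compared. Over 476 member results and 8362 alternatives, 23 calls were lost and 29 gained. The estimate changed sign in 619, none of them a called result, and 83 uncalled estimates moved by more than the residual SD.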
